A study of Eonycteris spelaea and Mus musculus with 51 samples.

Results

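The bat count table of this series holds 10328 rows named only as ncRNA followed by a number between 1 and 10330. The 5099 of them with 50 or more counts summed over the 27 bat libraries are described here, out of 30017 rows in the bat table and 70857 rows in the bat and mouse tables together. Of the other numbered rows, 2100 had 1 to 49 counts and 3129 had 0. The members were chosen by their summed counts, which are therefore not a result: 15 rows stood at exactly 50 counts and 14 at 49. The files pair these rows with no gene name, sequence or genome position, so they are given by number, and no role is given to any of them.

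The animals were cave nectar bats (Eonycteris spelaea), and blood, lung and muscle were sampled in each of 3 conditions. Recovery libraries came after 1 h of heat shock in the living bat and 4 h of recovery. Heat libraries came directly after 1 h of heat shock, and control libraries from bats labelled only as controls. Each of the 9 groups of tissue and condition held 3 libraries, made from TRIzol total RNA with a NEBNext Ultra Directional kit. The labels give no age, sex or strain. They do not say whether libraries came from separate bats, so p-values measure the spread between these libraries, which may be technical. The labels name no unheated bats sampled at the later times, so handling and elapsed time cannot be told apart from heat.

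Long non-coding RNAs are transcripts that are not translated into protein. Some guide chromatin regulators or act on the transcription of nearby genes, and for many no function is known. In well-annotated mammals they are, as a class, made at lower levels and in fewer tissues than messenger RNAs. Heat shock is known for the rapid activation of chaperone genes by heat shock factors and for a broad fall in the transcription of other genes. Non-coding transcripts take part as well: human cells make satellite III RNA from pericentromeric repeats on heat shock, and mouse cells raise a short interspersed repeat RNA that binds RNA polymerase.

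The libraries held between 9.29 and 33.3 M counts. The median member had 693 counts over all libraries, 2034 members had a count in all 27 libraries, and the 10 members with the most counts held 20.2% of all member counts. A library contained between 3704 and 4889 members with at least 1 count. In blood that number lay between 3704 and 4140, in lung between 4664 and 4889, and in muscle, the deepest libraries, between 3837 and 4134. Of the members, 10 had 0 counts in all 9 lung libraries, against 387 in blood and 246 in muscle. Members were chosen by their sum over these same libraries, and no value over all rows stands beside these numbers. Row lengths are not in the files, so the counts do not rank members against each other, and levels are compared for 1 row at a time. The fixed marker genes of the tissues could not be looked up, because the files pair the human identifiers of the bat rows with no symbol. Among the 758 rows whose mouse identifiers matched a symbol, 3 were chosen as examples after their values were seen. They are therefore no test of the tissue labels, and none was chosen for lung. Cox8b, a cytochrome c oxidase subunit of striated muscle, averaged 5.16 ± 0.616 CPM in blood, 12.8 ± 11.2 in lung and 213 ± 54.5 in muscle at control (SD, n = 3 each). Tlr13, a toll-like receptor of myeloid cells in mouse, averaged 57.1 ± 30.8, 8.35 ± 5.69 and 0.153 ± 0.0781 CPM in the same order of tissues, and Mettl21e, a methyltransferase of muscle, 0.119 ± 0.127, 0.251 ± 0.277 and 83.8 ± 31.4 CPM.

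One library stood apart in these rows. In lung control 3, the shallowest library, 594 members (11.6%) had more than 4 times the level of every other lung library, in CPM of all reads plus 1. Together those members took 3.32% of its counts. No member met that criterion in any of the other 8 lung libraries, and the highest number elsewhere was 33, in blood recovery 2. Among rows with human identifiers and at least 50 counts, 0.811% (128 rows) met it in lung control 3. One such row is ncRNA780, which had 3867, 5407 and 41118 counts in the 3 lung control libraries. Its neighbour in number ncRNA778 had 161, 187 and 5158 counts there. Both were shown after their values were seen.

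**Figure D1:**
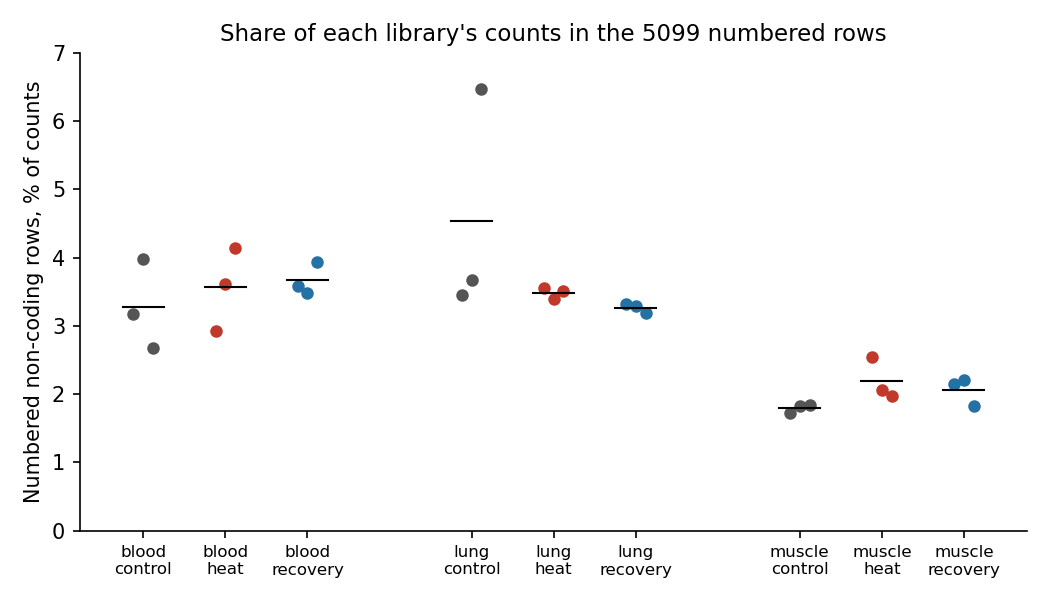
Percent of each library's counts that fell in the 5099 numbered rows (y axis), for blood, lung and muscle at control, heat and recovery (x axis). Points are libraries and lines are group means (n = 3); lung control 3 stands at 6.47%, while the other 8 lung libraries lie between 3.19% and 3.67%.

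The members held a small part of each transcriptome, smallest in muscle. In blood they took 3.27% ± 0.661 of counts at control, 3.56% ± 0.607 at heat and 3.67% ± 0.242 at recovery (SD, n = 3 each). In lung they took 4.53% ± 1.68, 3.48% ± 0.0833 and 3.27% ± 0.0681 at the same stages, with control libraries at 3.45%, 3.67% and 6.47%. In muscle the control libraries stood at 1.73%, 1.83% and 1.84%, the heat libraries at 2.54%, 2.06% and 1.97%, and the recovery libraries at 2.15%, 2.21% and 1.82%. All 3 muscle heat libraries lay above the 3 controls, whereas recovery 3 lay among them. Part of this share is 1 row, ncRNA957: without it the muscle means were 1.41%, 1.63% and 1.68% at control, heat and recovery. In bulk tissue, fewer cells of a type and less RNA per cell cannot be told apart.

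The tissues were compared at control in 1 fit of the 9 control libraries. The fit used edgeR's quasi-likelihood test with TMM scaling (trimmed mean of M values), and a row was called at a Benjamini-Hochberg adjusted p under 0.05 over all 18822 rows tested. Of the 5099 members, 3789 passed the filter on low counts. A row can pass that filter, or the sum of 50, through 1 tissue alone. Between lung and muscle, 1644 members were higher and 201 lower in lung. That is 48.7% of the members tested, beside 55.3% of all rows tested, of which 34.9% were higher and 20.4% lower. The median member was higher in lung than in muscle by 1.61 on the log2 scale, and the median of all rows by 0.54. Without lung control 3, 1352 members were higher and 216 lower in lung, and the medians were 1.22 for members and 0.52 for all rows.

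Between blood and lung, 735 members were higher and 1308 lower in blood, 53.9% of those tested beside 55.6% of all rows (22.7% higher, 32.9% lower). The median member change was −0.68 on the log2 scale and that of all rows −0.29. Without lung control 3, 792 members were higher and 1196 lower, and the medians were −0.26 for members and −0.27 for all rows. Between blood and muscle, 1272 members were higher and 797 lower in blood, 54.6% of those tested beside 64.9% of all rows (30.8% higher, 34.0% lower). Median changes there were 0.58 for members and −0.02 for all rows.

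The counts depend on the scaling between tissues, because TMM factors were 0.87 to 1.13 in blood, 1.60 to 1.72 in lung and 0.601 to 0.651 in muscle. With library totals alone, an alternative added after these factors were seen, the median of all rows moved to 1.93 for lung minus muscle, −1.04 for blood minus lung and 0.55 for blood minus muscle. The member medians moved with it, to 2.99, −1.45 and 1.20. The share of higher calls among the members called between blood and lung was then 21.8%, against 36.0% with TMM.

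A member was assigned to a tissue where it was called higher there than in both others. By that rule 677 members (17.9% of those tested) were assigned to blood, 727 (19.2%) to lung and 155 (4.09%) to muscle, 1559 (41.1%) in all. Over all rows tested the shares were 18.4% for blood, 15.1% for lung and 16.5% for muscle, 50% in all. The plot of tissue calls shows the muscle share of the members as the lowest of its bars; the difference from all rows was not tested, since rows are not replicates. Without lung control 3 the rule assigned 725 members to blood, 585 to lung and 165 to muscle (18.2%, 14.7% and 4.15% of members, beside 17.1%, 13.6% and 15.9% of all rows). In that fit the rule kept the assignment of 523 of the 727 lung members. With library totals alone it assigned 470 to blood, 1405 to lung and 68 to muscle (12.4%, 37.1% and 1.79% of members, beside 12.5%, 33.5% and 7.49% of all rows).

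**Figure D2:**
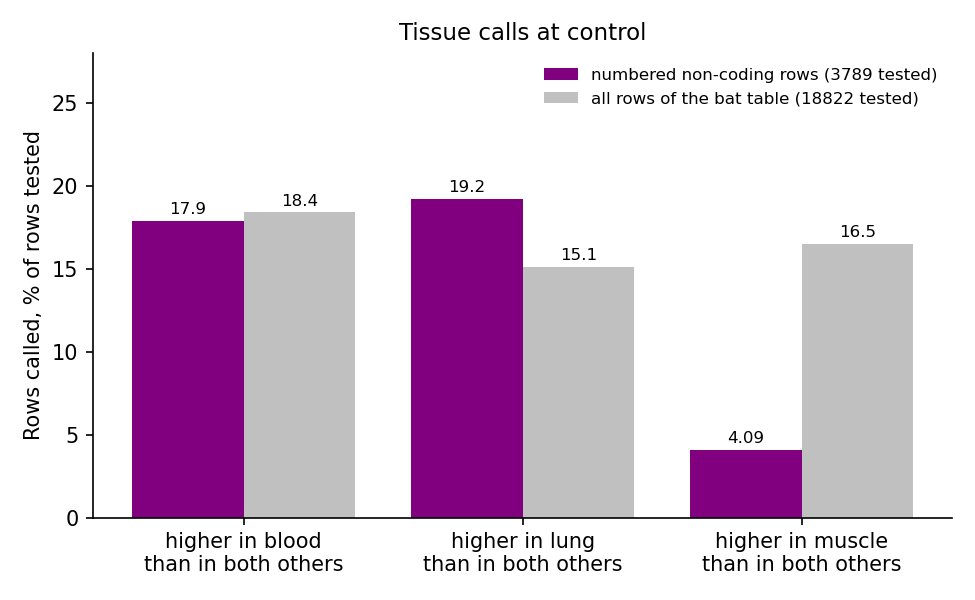
Percent of rows called higher in 1 tissue than in both others at control (y axis, from 0), for the numbered rows (left bars) and all rows of the bat table (right bars). The bars stand at 17.9% and 18.4% for blood, 19.2% and 15.1% for lung, and 4.09% and 16.5% for muscle.

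Few members were assigned to muscle, but they included the member with the highest total, 1217018 counts. ncRNA957 had 130, 24.3 and 67.9 CPM in blood, 123, 169 and 162 CPM in lung, and 6420, 6870 and 5350 CPM in muscle at control. Lung minus muscle was −5.36 on the log2 scale (SE 0.59, edgeR adjusted p = 3.7e-05), and no library of muscle overlapped one of another tissue. The next number, ncRNA958, followed the same order, with 63.7, 20.2 and 32.1 CPM in blood, 100, 168 and 77.4 CPM in lung and 4270, 4850 and 3800 CPM in muscle. The longest run of consecutive numbers assigned to muscle went from ncRNA357 to ncRNA361, and was picked out after its values were seen. Within it, ncRNA358 had 2, 1 and 2 counts in the blood libraries, 162, 302 and 352 counts in lung and 12172, 7902 and 16844 counts in muscle. Lung minus muscle for that row was −5.75 (SE 0.54, adjusted p = 1.42e-05).

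Among blood members, ncRNA6366 had 883, 1950 and 394 CPM in blood, 80.5, 76.2 and 44.0 CPM in lung and 38.9, 41.7 and 64.8 CPM in muscle. The blood libraries spread widely, but all lay above the 6 others. Blood minus lung was 4.00 on the log2 scale (SE 0.56, adjusted p = 0.000165) and blood minus muscle 4.47 (SE 0.57). For ncRNA9459 the gap was smaller, with 537, 903 and 454 CPM in blood, 169, 197 and 114 CPM in lung and 272, 332 and 323 CPM in muscle. Its blood minus muscle change of 1.03 (SE 0.32, adjusted p = 0.0147) was not called without muscle control 1 (adjusted p = 0.0573).

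Among lung members, the place of ncRNA780 rests on 1 library. It had 68.9, 153 and 47.1 CPM in blood, 124, 167 and 2580 CPM in lung and 1.13, 1.93 and 1.35 CPM in muscle. Blood minus lung was −3.42 (SE 1.03, adjusted p = 0.0161) with all libraries and −0.74 (adjusted p = 0.201) without lung control 3. Its call in that comparison was also lost without blood control 1 or 3, at adjusted p = 0.0546 and 0.0553, and with the replicate number as a block (−2.42, adjusted p = 0.0864), and DESeq2 gave it no adjusted p. ncRNA7525 shows a lung row with steady libraries: 60.1, 31.5 and 92.1 CPM in blood, 250, 268 and 224 CPM in lung and 45.1, 45.7 and 41.9 CPM in muscle. Lung minus muscle was 2.48 (SE 0.35, adjusted p = 0.000198) and blood minus lung −2.01 (SE 0.34, adjusted p = 0.000588). Not every member with many counts was called between tissues. ncRNA6732 had 183, 707 and 90.7 CPM in blood, 364, 246 and 178 CPM in lung and 294, 252 and 407 CPM in muscle, and none of its 3 tissue comparisons was called (adjusted p from 0.689 to 0.969). Without blood control 2, its highest library, ncRNA6732 was called lower in blood than in muscle (log2 −1.21, adjusted p = 0.0244).

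Members with nearby numbers mostly shared a tissue. Of 572 pairs of consecutive numbers in which both members were assigned, 483 (84.4%) were assigned to the same tissue. With 1 library left out, this share ranged from 81.4% to 87.0%. With all control libraries, the share was 71.4% at a distance of 2 numbers, 63.5% at 3, 61.2% at 4 and 51.0% at 5. At distances of 10, 20, 50 and 100 it was 38.6%, 40.9%, 37.3% and 43.2%, beside 41.6% over all pairs of assigned members. Runs of consecutive numbers assigned to 1 tissue were counted with all control libraries, lung control 3 included. They held 348 of the 677 blood members, 388 of the 727 lung members and 47 of the 155 muscle members. The longest were 7 rows in blood (numbers 94 to 100), 10 in lung (2743 to 2752) and 5 in muscle (357 to 361). Counts of members are accordingly not counts of independent observations. Whether such rows lie side by side in the genome or share reads was not tested, since the files hold no positions.

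**Figure D3:**
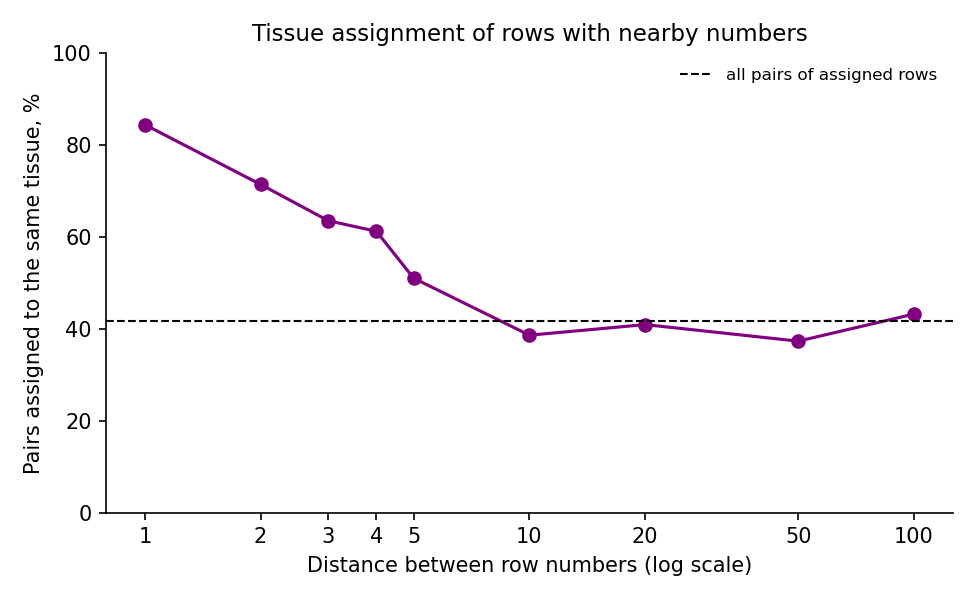
Percent of pairs of assigned numbered rows that were assigned to the same tissue (y axis), by the distance between their numbers (x axis, log scale); the dashed line is the share over all pairs, 41.6%. The share was 84.4% for consecutive numbers and stood near the line from a distance of 10 on.

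Heat and recovery were set against control within each tissue, in 1 fit per tissue of its 9 libraries. The heat and the recovery comparison of a tissue share their control libraries. In blood, 2967 members were tested and edgeR called 0 of them at heat or at recovery, beside 0.0% of all 16038 rows tested in each comparison. At an unadjusted p under 0.05 there were 91 members at heat and 156 at recovery (351 and 849 of all rows). DESeq2 called 0 members at heat and 16 at recovery, of which 7 were higher and 9 lower; these 16 are 0.539% of the members tested, and 92 of all rows were called (21 higher, 71 lower). Blood had the widest spread of the 3 tissues, with a common biological coefficient of variation of 0.536, against 0.343 in lung and 0.295 in muscle. The row with the smallest p among those higher at heat was ncRNA2620. It had 6.68, 3.30 and 3.84 CPM at heat and 6.52, 2.76 and 6.06 CPM at recovery, against 1.09, 0.426 and 0.733 CPM at control. No heat or recovery library overlapped a control library, and the log2 difference was 2.59 at heat (SE 0.58, adjusted p = 1.0) and 2.75 at recovery (SE 0.58, adjusted p = 0.424). DESeq2 called ncRNA2620 higher at recovery (adjusted p = 0.00106). ncRNA8002 had 19.9, 18.7 and 17.6 CPM at heat, against 42.3, 98.0 and 37.3 CPM at control, a log2 difference of −1.66 (SE 0.46, adjusted p = 1.0). ncRNA5106 had 2.12, 0.418 and 0.425 CPM at recovery, against 19.5, 28.3 and 9.08 CPM at control, a log2 difference of −4.25 (SE 0.74, edgeR adjusted p = 0.366), and DESeq2 called it lower (adjusted p = 3.9e-06).

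In lung, 4017 members were tested and edgeR again called 0 at heat and 0 at recovery, beside 0.0% of all 19149 rows at heat and 0.047% at recovery (0.0157% higher, 0.0313% lower). At an unadjusted p under 0.05 there were 685 and 1064 members, and 1662 and 3090 of all rows. With lung control 3 left out, these were 222 and 669 members and 960 and 2899 rows. The median member difference was −0.14 at heat and −0.18 at recovery, against −0.03 and 0.00 over all rows. The member medians without that library were −0.0078 and −0.12, against 0.0003 and 0.01 over all rows. DESeq2 called 3 members at heat, among 19 rows in all. At recovery it called 353 members, 32 higher and 321 lower, which is 8.79% of the members tested, among 910 rows (264 higher, 646 lower). DESeq2 was run only with all lung libraries, lung control 3 included. Without lung control 3, edgeR called 24 members at recovery, 1 higher and 23 lower. These are 0.579% of the members tested, among 62 of 19449 rows (13 higher, 49 lower). ncRNA4953 had 10.5, 14.7 and 16.7 CPM at heat and 25.6, 12.9 and 9.75 CPM at recovery, against 3.76, 3.44 and 2.33 CPM at control. All 6 heated libraries lay above the controls, by 2.12 on the log2 scale at heat (SE 0.39, adjusted p = 0.572) and by 2.32 at recovery (SE 0.39, adjusted p = 0.0995). DESeq2 called ncRNA4953 higher in both (adjusted p = 0.00119 and 8.74e-06). In ncRNA1041 lung control 3 stood above every other lung library: the row had 0.181, 0.0647 and 0.107 CPM at heat, against 0.813, 0.836 and 7.21 CPM at control (log2 difference −4.53, SE 1.08, adjusted p = 0.572). Without that library the difference of ncRNA1041 was −2.74. DESeq2, with all libraries, called it lower at heat (adjusted p = 0.0492) and at recovery (adjusted p = 0.012). At recovery, ncRNA1922 had 13.4, 17.7 and 5.84 CPM, against 1.93, 1.13 and 0.888 CPM at control, a log2 difference of 3.20 (SE 0.49, adjusted p = 0.0718). ncRNA6999 had 1, 3 and 1 counts at recovery, against 18, 21 and 10 counts at control (log2 difference −3.53, SE 0.63, adjusted p = 0.11). Neither was called by edgeR, and for both the groups did not overlap. DESeq2 called ncRNA1922 higher (adjusted p = 2.45e-07) and gave ncRNA6999 no adjusted p.

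In muscle right after heat, 2616 members were tested and 1 was called, lower, beside 0.0376% of all 15950 rows. At an unadjusted p under 0.05 there were 401 members, among 2840 rows. The median member difference was 0.22 on the log2 scale, against 0.02 over all rows. The called row was ncRNA5549, which had 3.93, 4.70 and 5.39 CPM at heat and 4.71, 4.67 and 7.10 CPM at recovery, against 14.4, 13.0 and 16.6 CPM at control. Every heated library lay below every control. It fell by 1.65 on the log2 scale at heat (SE 0.23, edgeR adjusted p = 0.0493) and by 1.42 at recovery (SE 0.23, adjusted p = 0.0195). The heat call sat close to the threshold: with any 1 of the 6 heat or control libraries left out its adjusted p lay between 0.0807 and 0.165, while the log2 difference stayed between −1.78 and −1.55. It was not called without recovery 1 either (adjusted p = 0.0518). Its recovery call was lost without recovery 1 or recovery 2 (adjusted p = 0.0929 and 0.0597). Leaving out muscle recovery 1, 2 or 3 gave 3, 5 and 8 members called at heat, with no count over all rows beside them. Same-numbered heat and control libraries of muscle varied together (same-number r from 0.22 to 0.268 over rows). With the replicate number as a block, 12 members were called at heat, 8 higher and 4 lower, which is 0.459% of those tested, among 63 rows (12 higher, 51 lower). DESeq2 called 99, 72 higher and 27 lower, 3.78% of those tested, among 855 rows (182 higher, 673 lower).

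ncRNA5319 just missed the call at heat. It had 6.94, 7.14 and 7.76 CPM at heat, against 0.69, 0.698 and 0.659 CPM at control, and the groups did not overlap. The log2 difference was 3.41 (SE 0.49, adjusted p = 0.0527). With the replicate block the row was called higher, at 3.45 (adjusted p = 0.0264).

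After recovery, 45 members rose and 24 fell in muscle. These 69 are 2.64% of the members tested, beside 2.67% of all rows tested, so the members were called about as often as the table as a whole. Of all rows tested 1.17% were higher and 1.5% lower, and of the members 1.72% were higher and 0.917% lower. Higher rows made up 65.2% of the member calls and 43.9% of all calls. With library totals alone they made up 51.1% of the member calls (24 higher, 23 lower) and 30.2% of all calls (87 higher, 201 lower). Whether the split of the members differs from that of all rows was not tested. The rises ranged from 0.78 to 4.16 on the log2 scale (median 1.5) and the falls from −4.14 to −0.88 (median −2.11). Counting consecutive numbers that moved in 1 direction once leaves 42 rises and 21 falls.

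**Figure D4:**
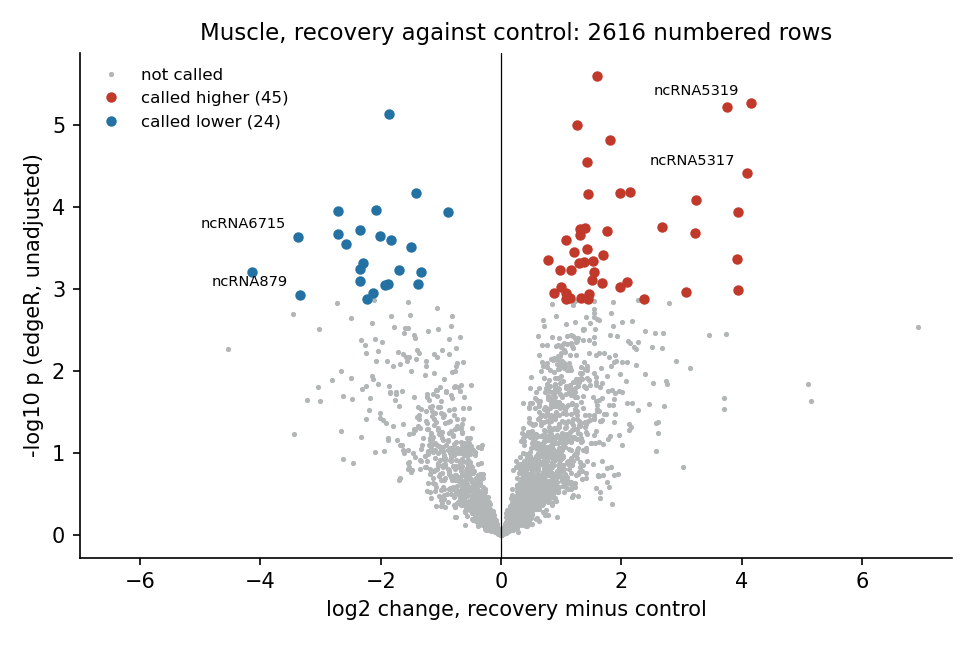
Log2 change of each of the 2616 tested numbered rows in muscle at recovery minus control (x axis) and −log10 of its unadjusted edgeR p (y axis), with called rows in colour. The 45 rows called higher reach 4.16 and the 24 called lower reach −4.14.

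The largest rise was that of ncRNA5319, which had 23.2, 6.11 and 7.47 CPM at recovery, against 0.69, 0.698 and 0.659 CPM at control. It rose by 4.16 on the log2 scale (SE 0.50, adjusted p = 0.00814), and recovery 1 was the highest library by far. ncRNA5317, 2 numbers away, had 12.5, 4.04 and 4.27 CPM at recovery and 3.45, 1.95 and 3.70 CPM at heat, against 0.658, 0.147 and 0.389 CPM at control. Its rise at recovery was 4.09 (SE 0.61, adjusted p = 0.0163). The same library was again the highest, and without muscle recovery 1 the rise was 3.34 and not called (adjusted p = 0.0551). In blood, ncRNA5317 had 18.6, 8.20 and 19.3 CPM at recovery, against 11.5, 17.0 and 11.9 CPM at control, and no difference was called there (log2 0.19, SE 0.40, adjusted p = 0.954). At control it was higher in blood than in muscle by 4.27 (SE 0.63, adjusted p = 0.000139).

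Among the falls, ncRNA6715 had 0.0709, 0.313 and 0.331 CPM at recovery, against 3.54, 0.993 and 3.00 CPM at control. It fell by 3.37 (SE 0.63, adjusted p = 0.0288). At heat it had 0.992, 2.11 and 1.44 CPM, values that overlap the controls. ncRNA879 had 0.638, 0.47 and 0.662 CPM at recovery, against 8.62, 1.07 and 8.21 CPM at control, and it fell by 3.34 (SE 0.74, adjusted p = 0.0474). Control 2 lay far below the other controls in both rows. The ncRNA6715 call was lost without muscle control 1, control 3, recovery 1 or recovery 2 (adjusted p from 0.052 to 0.103). The ncRNA879 call was lost without muscle control 1, control 3, heat 2, heat 3 or any recovery library (adjusted p from 0.0669 to 0.158). With the replicate number as a block it was lost as well (log2 −3.20, adjusted p = 0.0645).

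The longest run of consecutive numbers called in muscle was that of ncRNA10216 to ncRNA10219, chosen after its values were seen, and all 4 rows fell. Their log2 changes at recovery were −2.71, −2.57, −2.29 and −2.08 (adjusted p from 0.0231 to 0.0367). ncRNA10219 had 6.73, 6.86 and 7.80 CPM at recovery and 11.6, 21.3 and 19.7 CPM at heat, against 19.4, 23.0 and 48.3 CPM at control. Control 3 was the highest library, and without it the fall of ncRNA10219 was 1.57 and still called (adjusted p = 0.0337). Without recovery 1 or recovery 2 it was not called (adjusted p = 0.101 and 0.0598), nor were ncRNA10216, ncRNA10217 and ncRNA10218 (adjusted p from 0.0596 to 0.131). Those 3 rows also lost their calls without control 2 (adjusted p from 0.0515 to 0.0566). ncRNA10217 and ncRNA10218 lost theirs without recovery 3 (adjusted p = 0.0504 and 0.0594), and ncRNA10218 without heat 2 or heat 3 (adjusted p = 0.0533 and 0.057). In lung, ncRNA10219 had 14.6, 16.8 and 13.4 CPM at recovery, against 20.5, 18.9 and 16.9 CPM at control, and was not called (log2 −0.33, SE 0.18, adjusted p = 0.401). Rises came in 3 runs of 2 consecutive numbers, 5030 to 5031, 5316 to 5317 and 6731 to 6732. Over all pairs of consecutive numbers tested, the log2 changes at recovery correlated with r = 0.353 (1285 pairs), against r = 0.0226 at a distance of 10 (759 pairs). All points share the same 6 libraries, so these values only describe.

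**Figure D5:**
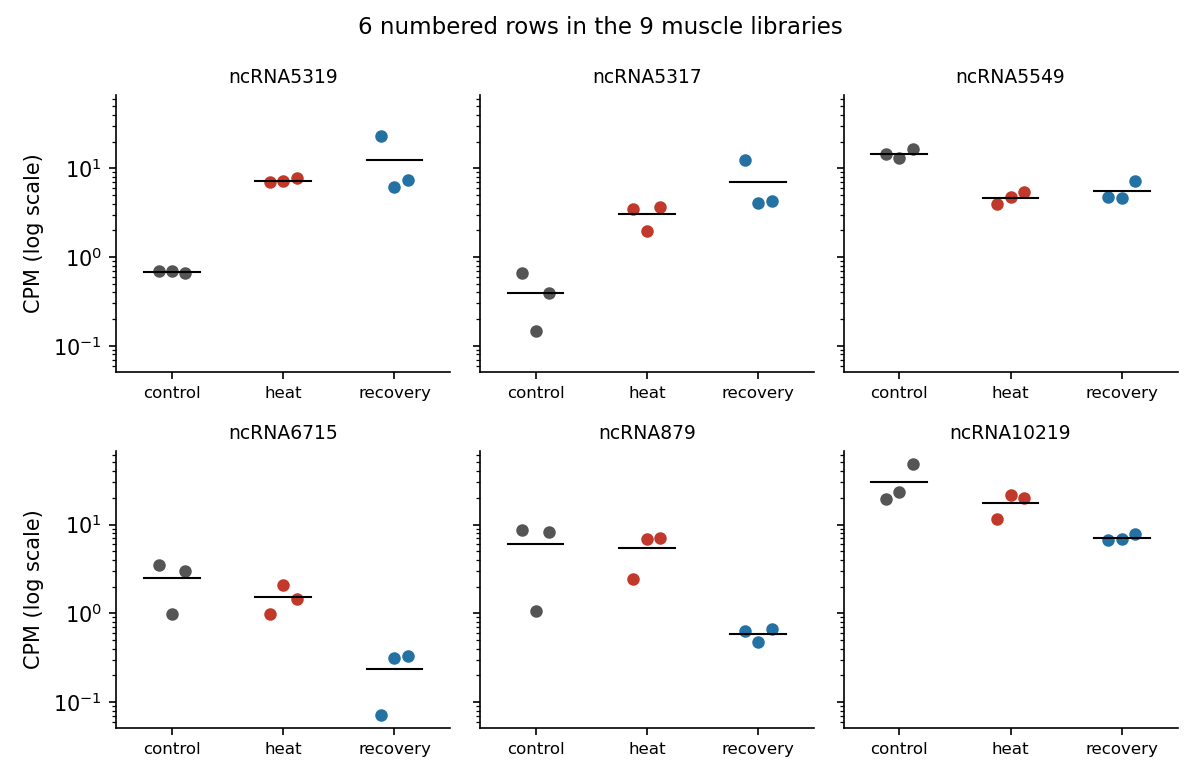
CPM (y axis, log scale) of 6 numbered rows in the 9 muscle libraries at control, heat and recovery (x axis); points are libraries and lines are group means (n = 3). The heat and recovery libraries of ncRNA5319, ncRNA5317 and ncRNA5549 do not overlap their controls, while ncRNA6715 and ncRNA879 at heat overlap the controls.

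The number of muscle recovery calls rests on few libraries. Without muscle recovery 1, 5 members were called, all higher, among 17 rows (12 higher, 5 lower), and 4 of the 5 were among the 69. Without recovery 2, 12 members were called, 11 higher and 1 lower, among 74 rows (55 higher, 19 lower), and 11 of the 12 were among the 69. With control 1, 2 or 3 left out, 27, 23 and 32 members were called, and with heat 2 or heat 3 left out, 33 and 34. Without recovery 3, 45 members were called. No count over all rows stands beside the counts without recovery 3 or a control or heat library. Those counts do not show whether the members lost calls apart from the table. DESeq2 called 259 members, 174 higher and 85 lower, and 68 of the 69 were among them. These 259 are 9.9% of the members tested, among 1639 rows (732 higher, 907 lower).

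Whether the change differed between muscle and lung was tested in 1 fit of the 18 libraries of both tissues, with 4302 members tested. For heat, edgeR called 0 members, beside 0.00504% of all 19860 rows, with 626 at an unadjusted p under 0.05, and DESeq2 called 14 (13 higher, 1 lower) among 39 rows. The row with the smallest p was ncRNA10057. In muscle it had 59.6, 107 and 68.8 CPM at heat, against 15, 13.8 and 14.6 CPM at control. In lung it had 19.5, 15.7 and 11.7 CPM at heat, against 21.2, 18.2 and 17.4 CPM at control. The muscle change exceeded the lung change by 2.72 on the log2 scale (SE 0.45, edgeR adjusted p = 0.089). DESeq2 called ncRNA10057 (adjusted p = 4.52e-05). Among the edgeR fits it was called only without muscle recovery 1 (adjusted p = 0.00829).

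For recovery, 99 members differed between the tissues, 89 with a higher change in muscle than in lung and 10 with a lower one. They are 2.30% of the members tested, beside 1.23% of all rows tested (0.705% higher, 0.524% lower). Without lung control 3, 69 members were called, 63 higher and 6 lower, and 61 of them were among the 99. The count was 33 with the replicate block (162 rows in all), 37 with library totals alone (111 rows) and 24 with no filter on low counts (75 rows), while DESeq2 called 323 (1066 rows). No member was called when lung recovery 1, 2 or 3 or muscle recovery 1 was left out, and 328 and 319 were called without lung control 1 and lung control 2. Without any 1 of lung heat 1, 2 and 3, muscle control 1, 2 and 3, muscle heat 1, 2 and 3 and muscle recovery 2, between 2 and 36 were called. Without muscle recovery 3, 89 were called, and 77 of them were among the 99. For the fits that left out a library, no count over all rows stands beside these counts. They do not show whether the members stood apart from the table without lung control 3. ncRNA10219, of the run described above, was among the calls: the muscle change minus the lung change was −1.80 on the log2 scale (SE 0.41, adjusted p = 0.0474). Of the other rows of that run, ncRNA10216 was called (−2.36, edgeR adjusted p = 0.0474). ncRNA10217 and ncRNA10218 were not (adjusted p = 0.0618 and 0.0897).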

How the data were processed

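Blood, lung and muscle RNA of the bat was measured in 27 libraries. The authors deposited raw counts per row, as whole numbers with no scaling. Per the submitters' processing notes, STAR 2.7 and featureCounts were used, and the only build named, for bat samples too, is mouse GRCm39. The bat annotation, the strand setting and the handling of reads with several matches are not given in the sources used here, so reads of overlapping or antisense rows cannot be told apart.

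The members and lists were chosen with earlier results of these data known. All bat rows entered each fit: filterByExpr (minimum count 10, minimum total 15), TMM, then edgeR 4.0.16 (robust quasi-likelihood, limma 3.58.1, R 4.3.3), with Benjamini-Hochberg adjustment over all rows tested. CPM are counts scaled by library size and TMM within the fit of each comparison, and SE is that of a log2 change. Alternatives were DESeq2 1.42.0, median-of-ratios factors, library totals, 2 other filters, a replicate block and each library left out. Rows named are, per tissue, the 2 with the highest mean among assigned members and among all members. Per comparison they are up to 2 called rows per direction with the largest change, without overlap and with at least 1 CPM, or else the row with the smallest p; between muscle and lung, 1 per direction. The scripts were tested on simulated data. No library was a copy: in each of 27 pairs within groups, differences were at least 24.9 times counting error. Same-numbered libraries varied together (every r over 0.1) in 2 of 9 pairs of groups, muscle heat with control and blood recovery with control; the labels name no source of such pairing. Mouse libraries were not used here.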

Additional observations from a re-analysis of the deposited data

Results flagged for a closer look

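The recovery changes of muscle and lung differed in 99 members by edgeR's quasi-likelihood test of the difference. The row named for a higher change in muscle was ncRNA430, at 10.99 on the log2 scale (SE 2.25, adjusted p = 0.042). In muscle it had 7, 3 and 1 counts at recovery, against 0 in each control library, so the fitted value is no bound on a fold. In lung it had 1, 3 and 2 counts at recovery, against 26, 12 and 123 at control, the last in lung control 3. The row named for a lower change in muscle was ncRNA5690, at −6.84 (SE 1.48, adjusted p = 0.0474). In muscle it had 0 counts in each recovery library, against 6, 8 and 4 at control. In lung it had 39, 63 and 61 counts at recovery, against 23, 48 and 14 at control. Both rest on few reads, and each lost its call in most of the fits that left out 1 library.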

How the results depend on the processing

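Counts of members called moved by over 1.5 times under these settings. DESeq2 called 16 members at blood recovery, 3 at lung heat, 353 at lung recovery, 99 at muscle heat, 259 at muscle recovery, and 14 and 323 for the muscle minus lung difference at heat and recovery. With library totals alone 3028 members were called between lung and muscle, 3 at muscle heat and 37 for the difference at recovery. The whole table moved with that scaling as well: rows assigned to lung went from 15.1% to 33.5% of all rows tested. With no filter 1 was called at lung recovery, 15 at muscle heat and 24 for the difference at recovery. At muscle heat, median-of-ratios factors gave 2 and a mean count of at least 10 gave 0. The replicate block gave 12 at muscle heat, where same-numbered libraries vary together, and 33 for the difference at recovery. Between recovery and control libraries of muscle, and of lung, not every same-number r was over 0.1. Lung was checked against muscle at control only. The block moved no other count past 1.5 times, blood recovery included. Every library also correlated best with its own number between lung and muscle at control.

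With 1 library left out, counts ranged from 1381 to 2041 for lung minus muscle, 1925 to 2213 for blood minus lung, 1894 to 2296 for blood minus muscle and 1382 to 1547 for members assigned to a tissue. They ranged from 0 to 0 at blood heat, blood recovery and lung heat, 0 to 24 at lung recovery, 0 to 8 at muscle heat, 5 to 52 at muscle recovery, and 0 to 1 and 0 to 328 for the difference at heat and recovery. Raising the minimum sum to 500 counts (2903 members) left every count within 1.5 times. The counts of calls in this section are of members only. With no count over all rows beside them, they do not show whether the members moved apart from the table.

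Some differences of named rows changed sign; of these the lung minus muscle difference of ncRNA9459 alone had been called. With library totals alone it stood at 0.43, and ncRNA6732 at 1.12 for lung minus muscle and −0.51 for blood minus lung. For blood minus muscle, ncRNA6732 was −0.36 with the replicate block. With 1 library left out it ranged from −0.94 to 0.76 for blood minus lung and from −1.21 to 0.49 for blood minus muscle, ncRNA8002 from −0.62 to 0.29 at blood recovery, and ncRNA879 from −0.61 to 0.24 at muscle heat, where the block gave 0.089. The cause was not tested. Blood, with the widest spread, limits what its comparisons could show.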
